A study of Mus musculus with 4 samples.

Results

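The 10 genes described here encode the AP-1 factors Fos, Fosb, Fosl1, Fosl2, Jun, Junb, Jund and Atf3, together with the immediate early factor Egr1 and the growth regulator Myc. They were chosen by name out of 21631 protein-coding genes, and all 10 were found in the RefSeq gene table of GRCm38.p6, the assembly behind mm10. For each gene, the Deaf1 ChIP-seq peaks with a summit inside its span or within 10 kb of it were collected from 2 peak lists. The lists come from 2 Deaf1 ChIP replicates of C2C12, an established mouse myoblast line that forms myotubes in culture. Its cells are labelled as myocytes, and the series' own design line speaks of differentiated myoblasts. All samples were of this line, with no treatment named, and the cells were fixed with formaldehyde before ChIP with 1 antibody against Deaf1. There was 1 condition, so nothing below compares cell states, and 2 input samples were not analysed here. Nothing in the labels says that the replicates came from separate cultures, so their differences may be technical.

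AP-1 is a dimer of basic leucine zipper proteins, in which a Fos family member pairs with a Jun family member, or Jun proteins pair with each other or with ATF proteins such as Atf3. Several of these genes, with Egr1 and Myc, are immediate early genes, which growth factors and stress switch on without new protein synthesis. In myoblasts, Fos, Jun and Myc are known for holding back the MyoD-driven differentiation programme. Deaf1 is a transcription factor whose SAND domain binds DNA that carries the sequence TTCG.

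All 10 genes had Deaf1 peaks of both replicates close by, and each had several separate regions. Peaks that overlapped by at least 1 bp were joined, and a joined stretch with peaks of both replicates is called a shared region. Every one of the 10 genes had such a region within 10 kb, against 66.1% of all protein-coding genes. All 10 also had 1 at a gene end, meaning summits of both replicates within 1 kb of the same end of the span, against 51.5% of all protein-coding genes. At Junb and Jund that end was the far end of the gene and not the start. The Junb start still lay inside a shared region, whose summits stood 1067 bp from it, just past the limit. Together the 10 genes had 40 shared regions, none of them counted for more than 1 gene. The number per gene ran from 3 at Fos, Jun and Egr1, through 4 at Fosb, Fosl1, Fosl2, Jund, Atf3 and Myc, to 7 at Junb. The median was 4 for the 10 genes, 1 over all protein-coding genes and 2 over those with at least 1 region. Of all protein-coding genes, 18.7% had 3 or more and 2.57% had 7 or more. The 10 genes are short, with a median span of 4386 bp against 17329 bp over all genes. Among the 12050 genes with spans no longer than that of Fosl2, the longest of the 10, 17.8% had 3 or more.

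**Figure D1:**
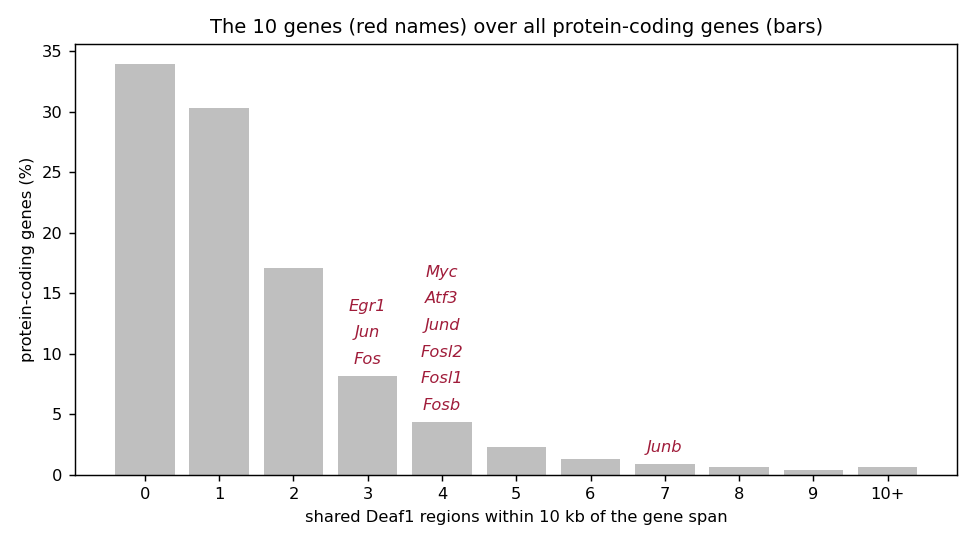
Percentage of all 21631 protein-coding genes (grey bars) by number of shared Deaf1 regions within 10 kb of the gene span, with the 10 genes named in red above the bar of their own number. All 10 names stand at 3 regions or more, and Junb stands at 7.

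The peak heights of the 10 genes were less set apart than their number. Fold enrichment, the authors' deposited ratio of the summit signal to the local background, had a median over the 40 regions of 13.7 in replicate 1 and 10.7 in replicate 2. Over all 22880 shared regions the medians were 12.5 and 9.48. Of the 40 regions, 3 were above the 90th percentile of all shared regions by the mean of both replicates, and 17 were below the median. Taking each gene's highest region, the median of the replicates' mean fold was 19.3 for the 10 genes and 17.2 over all genes with a region. The 3 high regions stood at Fosl2, Egr1 and Junb. Myc and Fos had the lowest top regions, higher than those of 30.9% and 32.6% of genes with a region.

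The replicates' summits lay close together about as often in these regions as in all shared regions, where peaks overlap by definition. The highest summits of the replicates lay a median of 15.5 bp apart, and 33 of the 40 pairs lay within 100 bp, against 83.2% of all shared regions. Across the 40 regions the folds of the replicates had a Spearman rho of 0.770, against 0.839 across all shared regions. These are correlations across regions, which share libraries and are not independent replicates. Fold was higher in replicate 1 at 28 of the 40, against 69.8% of all regions. The median log2 ratio of replicate 2 to replicate 1 was -0.25 for the 40 and -0.26 for all. Around the 10 genes lay 68 peaks of replicate 1, of which 28 had no partner in replicate 2, with folds from 3.23 to 9.26. All 50 peaks of replicate 2 lay in shared regions. The share of peaks in shared regions was thus 58.8% for replicate 1, against 35% in the whole list, and 100% for replicate 2, against 94% in the whole list.

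**Figure D2:**
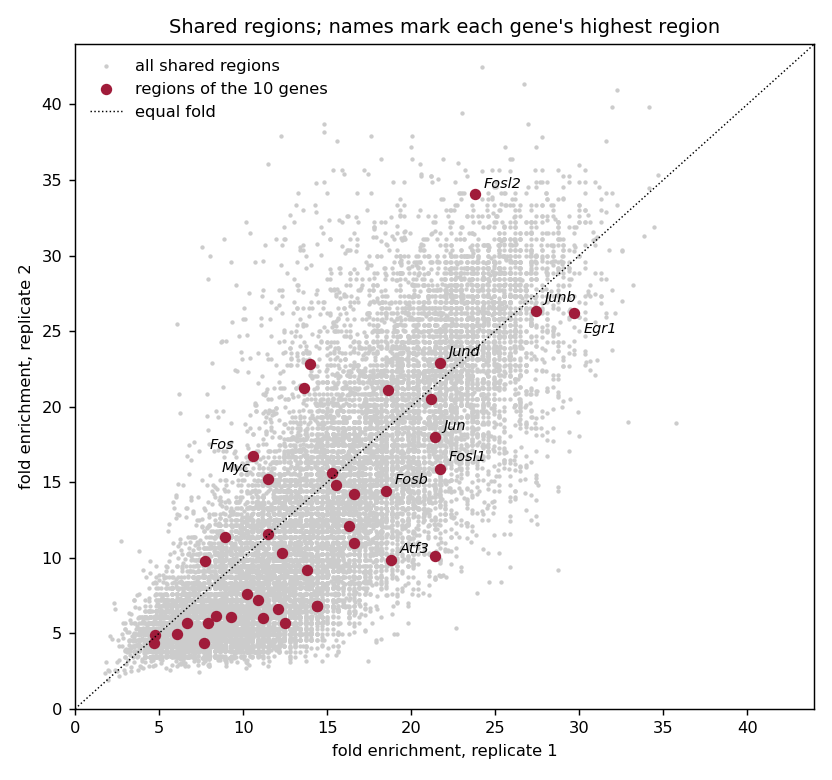
Fold enrichment in replicate 2 (vertical axis) against replicate 1 (horizontal axis) for the 40 shared regions of the 10 genes (red) and all 22880 shared regions (grey), with a dotted line of equal fold. Names mark each gene's region of highest mean fold. Among these 10 named regions, the mean fold was highest at Fosl2, Egr1 and Junb and lowest at Fos and Myc.

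Fos, the prototype of the family, had a region at its start that differed in height between the replicates, and 2 regions farther off. Its span is chr12:85473890-85477274, read towards higher coordinates. At the start the summits lay 98 and 116 bp inside the gene, with folds of 14.4 in replicate 1 and 6.83 in replicate 2 from pileups of 44 and 17 fragments. Pileup, the number of fragments over the summit, was recovered from the deposited fold and p. A region at chr12:85472052-85472506, 1694 and 1704 bp upstream, had folds of 10.6 and 16.7. Its pileups were 66 and 43 fragments over local backgrounds of 5.34 and 1.64 fragments. Beyond the gene's far end, 12245 and 12261 bp from the start, a region had folds of 12.3 and 10.3 from pileups of 69 and 71 fragments. The start region was thus the highest of the 3 in replicate 1, and the upstream region was the highest in replicate 2. Under a stricter rule, by which each peak had to overlap 50% of both peaks, Fos no longer had a shared region at a gene end. A further peak 404 bp upstream, with a fold of 7.63, was found in replicate 1 without a partner.

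Fosb, whose product can pair with Jun proteins in the same way, had its highest region just before its start. The span is chr7:19302696-19310118, read towards lower coordinates, and the start in the promoter table is base 19310045. The summits lay 153 and 151 bp upstream, with folds of 18.5 and 14.4 and pileups of 66 and 37 fragments. Inside the gene, regions 1303 and 1316 bp past the start had folds of 12.1 and 6.59, and regions 4918 and 4953 bp past it had 8.94 and 11.4. The gene's own regions were thus lower than the one before its start in both replicates. The fourth region lay downstream, near an end of the noncoding gene Gm51441, with folds of 12.5 and 5.69. Another 8 peaks of replicate 1 had no partner, the most of any of the 10 genes, and their folds ran from 3.23 to 7.66.

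Promoter sequences show what lies under or beside these summits. They run from 250 bases before the start to 50 after it, are credited to RefSeq (GRCm38.p6), and were matched for 7 of the 10 genes, Egr1, Fosl1 and Myc not being in the table. Shown are the promoters of Fosb and Fos, whose start regions had the highest and the lowest mean fold among the 5 of these genes with summits of both replicates within 1 kb of the start. Capitals mark TTCG, the core of the Deaf1 element, or CGAA, the same letters on the other strand, and each run reads 5′ to 3′ on the gene's own strand.
Fosb, chr7:19309996-19310295, minus strand: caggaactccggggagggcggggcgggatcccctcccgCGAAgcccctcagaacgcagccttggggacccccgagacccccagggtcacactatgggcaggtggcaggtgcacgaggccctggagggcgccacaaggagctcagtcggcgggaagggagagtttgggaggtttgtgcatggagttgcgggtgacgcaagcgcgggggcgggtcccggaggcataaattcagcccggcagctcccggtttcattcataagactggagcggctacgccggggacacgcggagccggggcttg
Fos, chr12:85473640-85473939, plus strand: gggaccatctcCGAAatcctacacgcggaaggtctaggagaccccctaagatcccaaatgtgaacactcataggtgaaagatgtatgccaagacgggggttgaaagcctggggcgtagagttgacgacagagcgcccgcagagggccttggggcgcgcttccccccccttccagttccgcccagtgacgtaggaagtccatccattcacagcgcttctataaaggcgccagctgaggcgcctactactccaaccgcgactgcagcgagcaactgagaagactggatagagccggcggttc

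The Fosb promoter holds a single TTCG match, starting 212 bp before the start, and the Deaf1 summits lay between it and the start. In Fos the match starts 239 bp before the start, while the summits lay past the end of the printed run. At least 1 match stood in 6 of the 7 promoters, the exception being Junb, against 44.7% of all 32851 promoters in the table. Fosl2 and Jun had 2 each. TTCG itself contains a CpG pair (C followed by G). All of the 7 promoters but that of Jund had 15 to 32 CpG pairs, against a median of 7 over all promoters. The part of CpG content in the share of promoters with a match was not tested. Full elements of the factors themselves were searched on both strands as TGACGTCA (the cyclic AMP response element, bound by ATF proteins), TGACTCA (the AP-1 element) and CACGTG (the Myc and Max element). None of the 3 was in any of the 7 promoters, and they occurred in 1.79%, 5.2% and 7.15% of all promoters. TGACG, the shorter form of the first element and part of its full letters, was added to the search after the sequences had been read. It starts 129 and 66 bp before the start in Fos, 60 bp before it in Fosb, 106 bp in Junb and 7 bp in Atf3, and it occurred in 20.8% of all promoters.

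Fosl2, which encodes the Fos relative Fra-2, had the highest region of all 10 genes by mean fold. The span is chr5:32136472-32157840, read towards higher coordinates. At chr5:32134953-32135789, summits 1357 and 1355 bp upstream had folds of 23.8 and 34.1 and pileups of 85 and 89 fragments. The mean fold was higher than at 99% of all shared regions. Farther upstream, at 3194 and 3298 bp, the folds were 15.3 and 15.6. A region over the start had folds of 16.3 and 12.1, with the replicate 1 summit 68 bp before the start and the replicate 2 summit 164 bp after it. Inside the gene, both replicates had a summit at the very same base, 16415 bp from the start, with folds of 9.26 and 6.07. Heights thus stood in the same order in both replicates at the highest and the lowest of the 4 regions.

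Fosl1, the gene of the other Fos relative, Fra-1, lies at chr19:5447698-5455938 among close neighbours. Its distances are given from the lower-coordinate end. The highest region lay beyond the higher end, 9482 and 9706 bp away, with folds of 21.7 and 15.9. That region also lies within 1 kb of an end of Ccdc85b, so it cannot be assigned to either gene. At the lower end, summits 22 and 313 bp inside had folds of 16.6 and 11. The next region inside, at 1025 and 1001 bp, had 14.4 and 6.83, the same whole-number pileups of 44 and 17 as the Fos start region. The weakest, at 6741 and 6821 bp, had 6.07 and 4.93. In each of these 4 regions fold was higher in replicate 1.

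**Figure D3:**
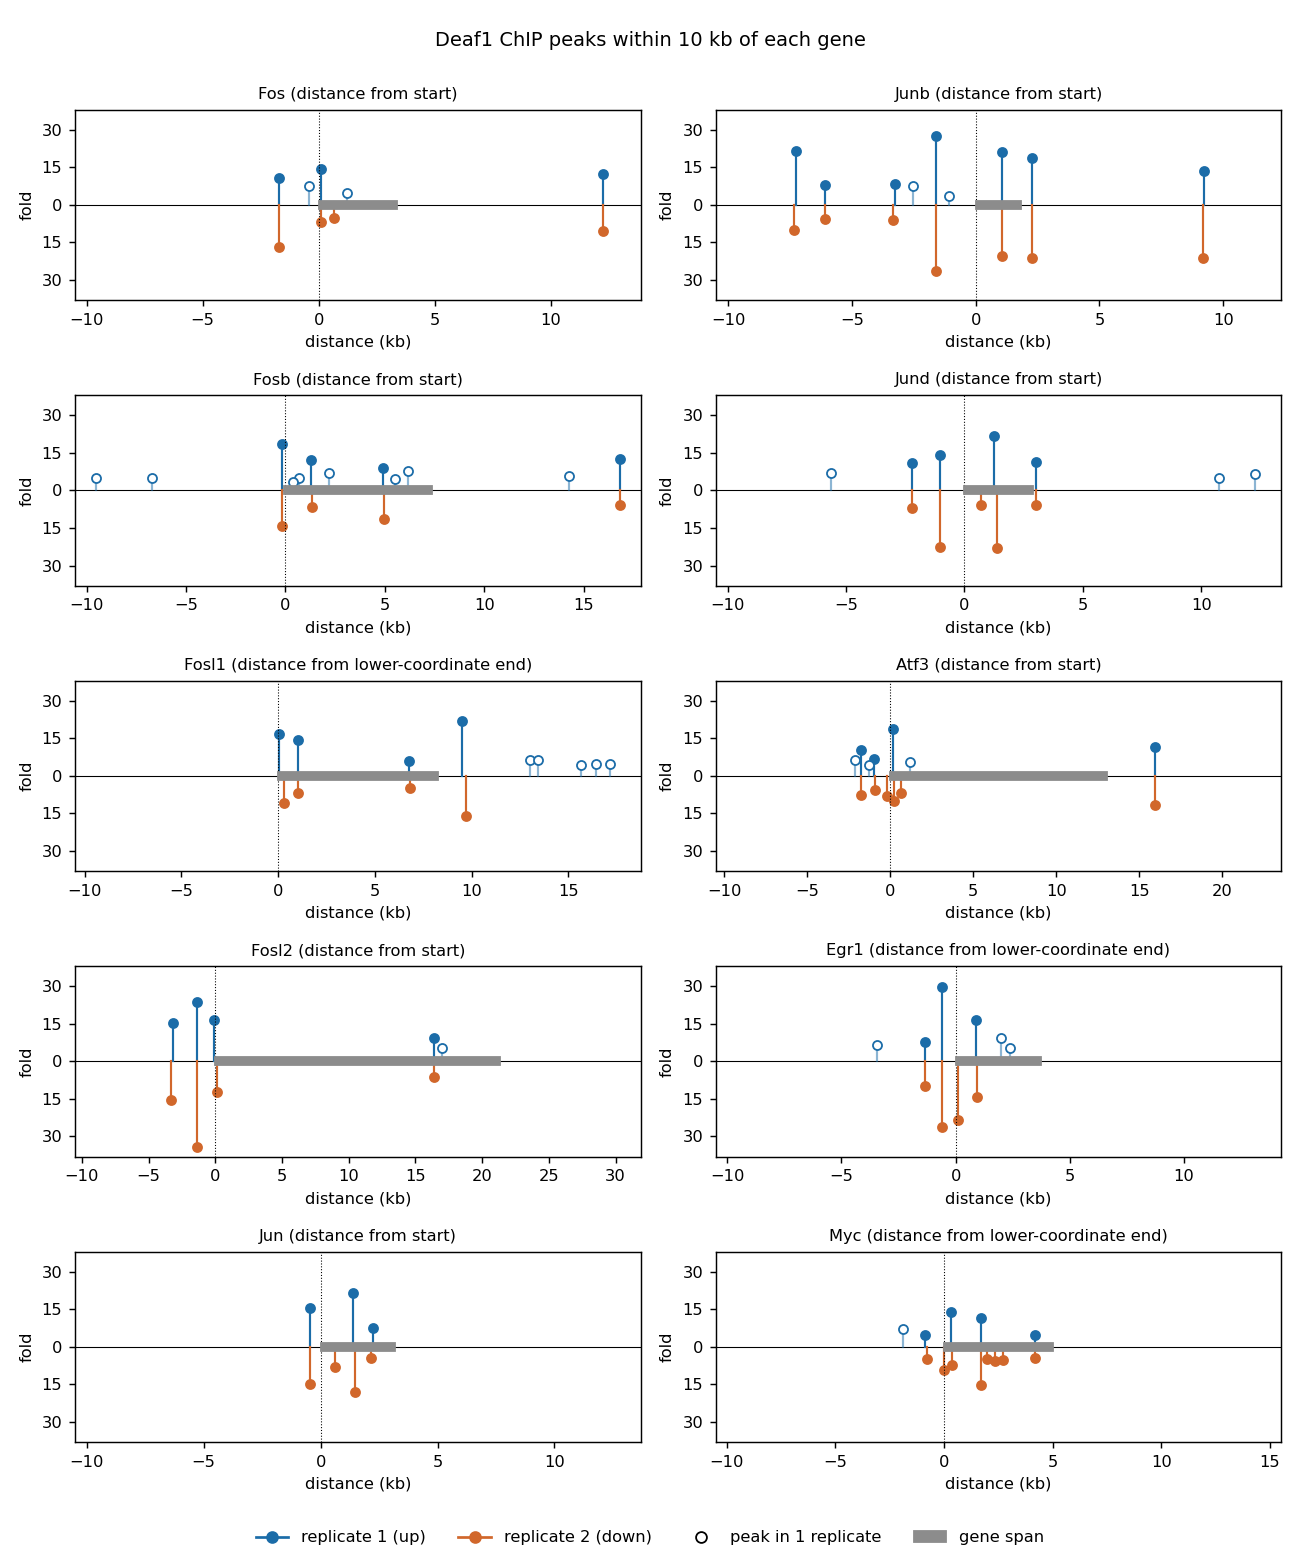
Deaf1 peaks around each of the 10 genes, with fold upwards for replicate 1 and downwards for replicate 2 against the distance of the summit (kb) from the start or, for Fosl1, Egr1 and Myc, from the lower-coordinate end. Filled circles are peaks in shared regions, open circles peaks found in 1 replicate, and grey bars gene spans. The region of highest mean fold stands upstream of the gene at Fosl2, Junb and Egr1 and inside it at Jun and Jund.

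The Jun genes, which encode the other side of the AP-1 dimer and have no introns in the mouse, had 50% to 89% of their spans in Deaf1 peaks. At Junb, 89% of the span lay in replicate 1 peaks and 86.3% in replicate 2 peaks. For Jund the shares were 69.4% and 64.6%, and for Jun 66.2% and 50%. Next among the 10 genes came Egr1, with 52.1% and 18.5%, and Myc, with 45.8% and 27.9%. Over the 4850 protein-coding genes with spans of up to 5 kb, the 99th percentile of this share was 82.4% in replicate 1 and 65.5% in replicate 2. The median was 0% in both, since 60.8% of these genes in replicate 1 and 70.4% in replicate 2 had no peak in the span. Of the Jun genes, Junb alone stood above the 99th percentile, and did so in both replicates. The Junb peaks inside the gene, 1871 and 1799 bp wide, were wider than 99% of the peaks of their lists, where the 99th percentile was 1650 bp and 1533 bp. Wide regions of 1500 bp or more made up 5 of the 40, against 4.34% of all shared regions, and stood at Jun, Junb, Jund, Atf3 and Myc.

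Junb (chr8:84976909-84978748, read towards lower coordinates) had the most regions of the 10 genes, 7. The highest, at chr8:84980066-84980543, had summits 1622 and 1608 bp upstream, folds of 27.4 and 26.3 and pileups of 110 and 78 fragments, and its mean fold was higher than at 97.2% of all shared regions. Inside the gene both replicates had their summit at the same base, 1067 bp from the start, with folds of 21.2 and 20.5. Just past the gene's end, 2271 and 2269 bp from the start, the folds were 18.6 and 21.1. These 3 regions differed little between the replicates. Of the other 4, the region 7244 and 7319 bp upstream had folds of 21.4 and 10.1, and the region 9204 and 9200 bp downstream had 13.6 and 21.2. The second of these lies within 1 kb of ends of Prdx2 and Rnaseh2a. The remaining pair upstream had folds of 8.38 and 6.14 and of 7.90 and 5.69.

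Jund (chr8:70697739-70700616, read towards higher coordinates) had its highest region inside the gene, at chr8:70698331-70700322. Summits 1260 and 1376 bp from the start had folds of 21.7 and 22.9 and pileups of 93 and 84 fragments. Upstream, at 1030 and 1033 bp, the folds were 14.0 and 22.8, and the log2 ratio between the replicates, 0.70, was the highest of the 40 regions. Regions at 2219 and 2216 bp upstream and just past the far end had folds of 10.9 and 7.21 and of 11.2 and 6. The second of these is near an end of Iqcn. No shared region had summits of both replicates within 1 kb of the Jund start, so its region at a gene end is the one at the far end. The start lay in a gap between peaks that reached 884 bp upstream and 592 bp downstream in replicate 1, and 898 bp and 598 bp in replicate 2. Its promoter run is shown because it differs in base content from the others; it was picked after its values had been seen.
Jund, chr8:70697489-70697788, plus strand: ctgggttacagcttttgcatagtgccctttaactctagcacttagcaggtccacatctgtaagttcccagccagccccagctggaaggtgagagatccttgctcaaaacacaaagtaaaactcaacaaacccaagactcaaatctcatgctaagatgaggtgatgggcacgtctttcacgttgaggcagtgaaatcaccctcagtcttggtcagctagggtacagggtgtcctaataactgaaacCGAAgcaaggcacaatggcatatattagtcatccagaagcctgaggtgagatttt

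The Jund run has a GC content of 46.7% and 3 CpG pairs, while the other 6 promoters have 58.7% to 68.3% and 15 to 32 CpG pairs. Medians over all promoters were 52.7% and 7. The table gives 1 start for Jund, at the outermost base of a span that covers more than a single RefSeq model.

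Jun (chr4:95049036-95052222, read towards lower coordinates) had its highest region inside the gene at chr4:95050340-95052183. Summits 1378 and 1487 bp from the start had folds of 21.4 and 18 and pileups of 66 and 56 fragments. A region on the other side of the start, at 453 and 464 bp upstream, had folds of 15.5 and 14.8, and is also near an end of the neighbouring noncoding gene Junos. The weakest, 2233 and 2144 bp from the start, had 7.66 and 4.38. The start itself lay between these peaks. In replicate 1 the nearest peak edges were 144 bp upstream and 39 bp downstream of it, and in replicate 2 they were 157 bp and 91 bp away. Jun is the gene without any single-replicate peak in its window.

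Atf3, a stress-induced partner and repressor in the same family, had a broad region over its start in replicate 1. The span is chr1:191170296-191183333, read towards lower coordinates. In replicate 1 a single peak of 1694 bp covered the start, with a fold of 18.8 at 171 bp inside the gene. Replicate 2 had 3 narrower peaks in the same region, with folds of 9.86 at 203 bp inside, 8.21 at 161 bp upstream and 6.95 at 634 bp inside. The start lay in the gap between the first pair of these, with edges 54 bp and 24 bp away. Upstream regions at 1746 and 1751 bp and at 965 and 918 bp had folds of 10.2 and 7.59 and of 6.68 and 5.69. A region beyond the far end, 15913 and 15929 bp from the start, had 11.5 and 11.6. The downstream region was the one at which the replicates had nearly the same fold, and it was the highest of Atf3 in replicate 2.

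Of the 7 genes in the promoter table, the start base lay inside peaks of both replicates at Fosl2 and Junb. That is 2 of 7 genes, against 39.5% of the 17274 protein-coding genes in the table. At Fos and Atf3 it was covered in replicate 1 alone, and at Fosb, Jun and Jund in neither. The Fosb start was 4 bp from a peak edge in replicate 1 and 63 bp from it in replicate 2. For Fosl1, Egr1 and Myc the lower-coordinate end, where transcription of these genes is known to begin, was covered in both replicates.

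Egr1, a zinc finger factor that serum and growth factors induce, had the highest fold of any of the 40 regions in replicate 1. The gene lies on chromosome 18, from 34861207 to 34864956, and distances are from its lower end. Summits 600 and 586 bp upstream had folds of 29.7 and 26.2 and pileups of 92 and 82 fragments, and the mean fold was higher than at 98.2% of all shared regions. Replicate 2 had another summit in that region, 109 bp inside the gene, with a fold of 23.6, where replicate 1 had a single peak of 1447 bp. A region 882 and 933 bp inside had folds of 16.6 and 14.2, and a region 1357 and 1353 bp upstream had 7.75 and 9.79. The order of the 3 regions was the same in both replicates. With a limit of 500 bp in place of 1 kb, Egr1 was the gene that no longer had a shared region at a gene end.

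Myc, which encodes a basic helix-loop-helix factor of cell growth, had 4 shared regions, of which 2 were near the median of all shared regions by mean fold and 2 were among the lowest. By mean fold these stood above 60.1%, 52.2%, 2.61% and 1.56% of all shared regions. The span is chr15:61985341-61990361, with distances from the lower end. The highest region, chr15:61986800-61988343, had summits 1690 and 1692 bp inside with folds of 11.5 and 15.2 and pileups of 64 and 42 fragments. It was 1 peak of 1544 bp in replicate 1 and 4 peaks in replicate 2, so the replicates divided the same stretch differently. At the lower end, summits 349 and 27 bp inside had folds of 13.8 and 9.17 and pileups of 59 and 25 fragments. The other 2 regions, 861 and 762 bp upstream and 4180 and 4182 bp inside, had folds of 4.76 and 4.89 and of 4.69 and 4.36. The last of these is near the higher end and had a −log10 q of 6.83 and 3.96, the lowest of the 40 regions in each replicate.

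The local background differed among these genes, and it enters every fold as the divisor. It was never under 2.13 fragments in the replicate 1 list or 1.64 fragments in that of replicate 2. All Myc peaks stood above that lowest value in both replicates, 5 of 5 and 8 of 8. Their backgrounds ran from 2.72 to 4.67 fragments in replicate 1 and from 1.66 to 2.71 fragments in replicate 2. Myc lies on chromosome 15, where 44.7% and 42.7% of all peaks had a raised background, against 19.6% and 23.7% on the other chromosomes. At Junb 9 of 9 and 6 of 7 peaks were raised, up to 4.01 and 3.79 fragments. At Egr1 1 of 6 and 4 of 4 were, up to 4.67 and 2.17 fragments. None of the Fosl1 and Fosl2 peaks was raised in replicate 2. Over the 10 genes the background was raised at 21 of 40 replicate 1 peaks in shared regions (52.5%) and at 29 of 50 replicate 2 peaks (58%), against 30.1% and 25% of all peaks in shared regions. The part of the background in the folds of Myc, Junb and the other genes was not tested.

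**Figure D4:**
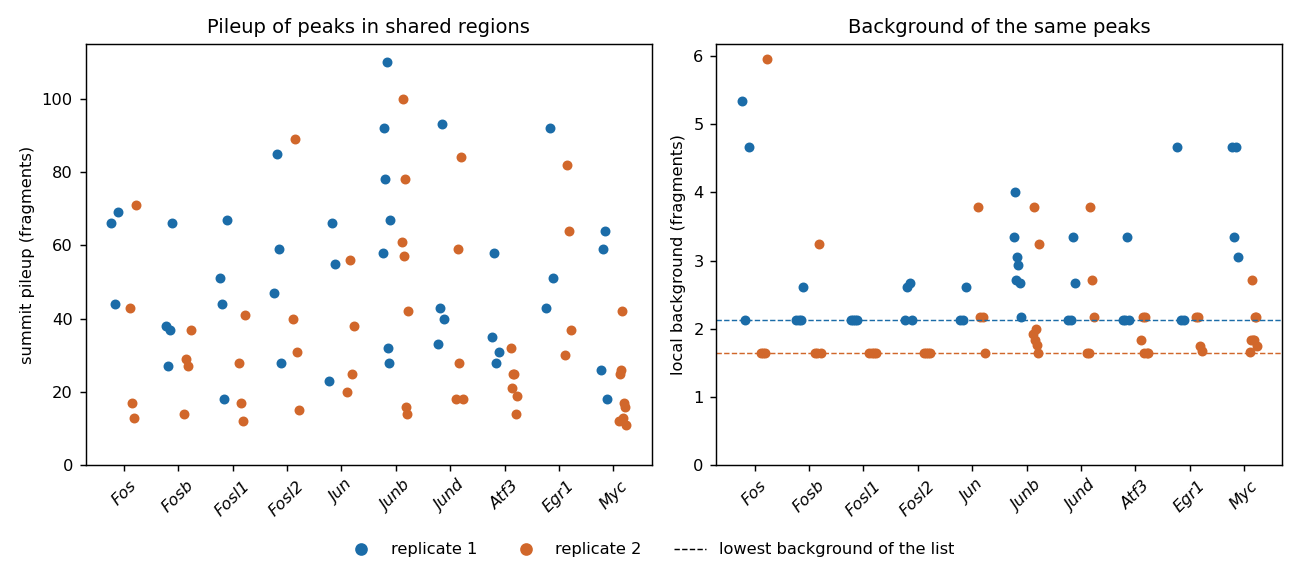
Summit pileup (left) and local background (right), in fragments, of every peak in a shared region of each gene, for replicate 1 (blue) and replicate 2 (orange). Dashed lines mark the lowest background of each list, 2.13 and 1.64 fragments. All Myc points lie above the line of their own list.

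Single regions differed in how far the folds of the replicates stood apart. Among all shared regions the log2 ratio of replicate 2 to replicate 1 ran from -1.13 at the 5th percentile to 0.47 at the 95th. Of the 40 regions, 4 lay above the 95th percentile, where by definition 5% of all shared regions lie. They were the upstream regions of Fos (0.66), Fosl2 (0.52) and Jund (0.70) and the region of Junb shared with Prdx2 (0.64). On the other side, the Fosb region near Gm51441 (-1.13), the far upstream region of Junb (-1.08), the start region of Fos (-1.07) and the Fosl1 region about 1 kb inside (-1.07) had the lowest ratios. With 1 library behind each value, only counting error can be attached to a pileup, and no test of these differences was made.

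Other genes around these factors also had Deaf1 regions at their ends more often than the 51.5% of all protein-coding genes, and the shares are given without a test. Of 34 other immediate early genes 30 did, and all 34 had a region within 10 kb. Highest were Dusp5, a phosphatase gene, with folds of 23.0 and 33.7, Nr4a1, an orphan nuclear receptor gene, with 29.4 and 26.3, and Dusp2 with 24.9 and 22.4. Nr4a1 and the clock gene Per1 had 8 shared regions each within 10 kb, more than any of the 10 genes, though Per1 had none at an end. Of 16 other genes of the Myc network all had a region at an end, led by Mxd3, an antagonist of Myc, with 26.2 and 23.6, Mycl with 21.4 and 25.4 and Mxd4 with 24.7 and 19.9. Max, the obligate partner of Myc, had 11.8 and 14.0.

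Of 28 genes upstream of these promoters, namely Ras and MAP kinases, Srf with its partners and Creb1 with its cofactors, 27 had a region at an end. Mapk9, a Jun kinase gene, had folds of 27.7 and 30.7, and Hras had 25.5 and 28.4 at a region shared with Lrrc56. Map2k1 had no shared region within 10 kb. The lowest was Creb1, with 2.59 and 3.26. Among 20 other AP-1 and bZIP genes, which encode relatives of the same domain, 14 had a region at an end. Jdp2, a partner of Jun, had 29.7 and 27.3, Bach1 22.1 and 31.1 and Mafa 22.4 and 27.5. Atf4, Batf, Batf2 and Mafg had none within 10 kb. The median number of regions per gene was 2 for the immediate early list, 3 for the Myc network, 1 for the upstream genes and 1.5 for the bZIP list, against 4 for the 10 genes.

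**Figure D5:**
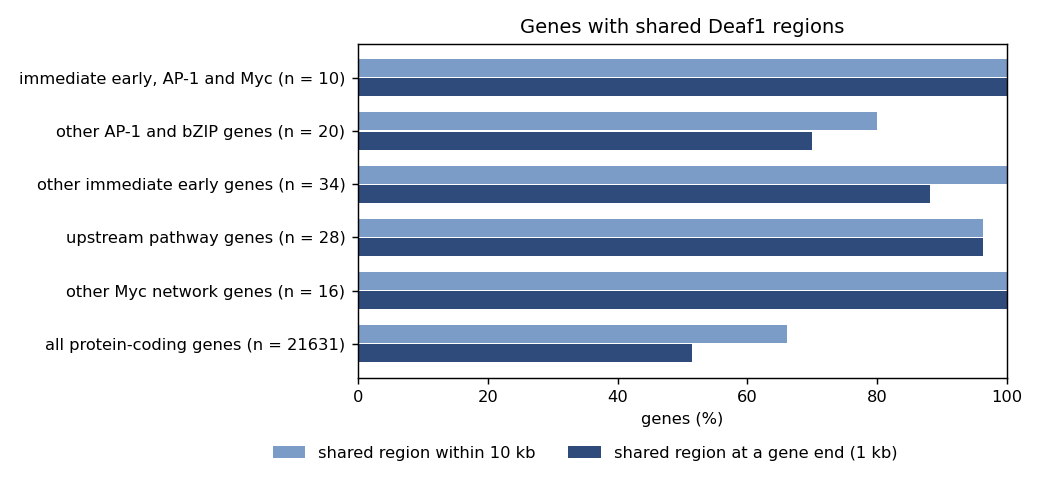
Percentage of genes with a shared Deaf1 region within 10 kb of the span (light bars) and at a gene end (dark bars) for the 10 genes, 4 related lists and all protein-coding genes. The bZIP list is the lowest of the lists, at 80% and 70%, against 66.1% and 51.5% of all protein-coding genes.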

How the data were processed

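Deaf1 ChIP-seq peak lists of 2 replicates were used. BWA, MACS2 and mm10 are named, per the submitters' processing notes; neither versions nor settings, nor the control used for peak calling, could be taken from them. The authors' lists are 1 per replicate, with 65606 and 26503 peaks. The fold enrichment (a ratio), the −log10 p-value and q-value, and an integer score equal to 10 times the −log10 p are deposited values. Read depth is not in the files.

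Fold and p together gave the summit pileup and local background, assuming Poisson counts and a fold made with 1 added to each (largest misfit in −log10 p 4.07e-05), and the solver and the region finder were tested on simulated data. A background was called raised if above the lowest by more than 0.003. Peaks outside chromosomes 1 to 19 and X, 24 and 21 of them, were left out. Regions were formed with Python 3.11.15, pandas 2.3.3, numpy 2.4.6 and scipy 1.17.1, and a region belonged to a gene when the highest summits of both replicates lay in its window. Gene spans cover all RefSeq models. The 98 entries of the 4 related lists all matched. Named from each list are the 3 genes with the highest mean fold at an end and up to 3 without a region within 10 kb, except 1 gene that is not reported here; the region counts of Nr4a1 and Per1, Max, Creb1 and Mafg were named after their values had been seen. Members and lists were chosen with earlier results of these data known, so no test was run.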

Additional observations from a re-analysis of the deposited data

How the results depend on the processing

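Each of 84 recomputed values under 11 alternatives was set against its main value, and 80 stayed within 1.5 times (counts and shares of genes) or within the replicate SD of 2.96 (fold). All 10 genes had a shared region within 10 kb under each alternative tried for that count, including inside the span alone, where 51.8% of all protein-coding genes did. Over the alternatives with both replicates this share ran from 51.8% to 64.7%, and the share at a gene end from 43.1% to 56.3%. With a single replicate any peak counted, shared or not. The shares were then 66.8% and 52.3% without replicate 1, and 74.8% and 61.8% without replicate 2. Regions around the 10 genes numbered 16 inside the spans alone, and 50 to 68 peaks were counted when a single replicate was used, the higher number without replicate 2. The median highest fold moved to 14.1 inside the spans alone and to 16 when each peak had to overlap 50% of both peaks, and was 17.3 to 21.5 in single replicates. The cause was not tested, apart from the smaller window holding fewer regions by construction. The gene-end count was 9 of 10 with a 500 bp limit (without Egr1) and with the 50% overlap (without Fos). In the related lists the 500 bp limit left 11 of 16 Myc network genes and 21 of 34 other immediate early genes at an end. It left 22 of 28 upstream genes and 13 of 20 bZIP genes, against 43.1% of all protein-coding genes. Under the 50% overlap the counts were 16, 21, 27 and 12 in that order, against 44.7%. All of these counts lay within the 1.5 times limit. No paired analysis was possible because no result here comes from a test between groups. Single summit values rest on 11 to 110 fragments, and no input list was set against these regions.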
